A study of Mus musculus and Rattus norvegicus with 30 samples.

Results

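Compound 332, an agonist of the estrogen-related receptors (ERRs), was given to mice that had undergone sham surgery, and left ventricular RNA was compared with that of sham-operated mice given vehicle. The 8 sham hearts, 5 given 332 and 3 given vehicle, were chosen by their labels and are 8 of the 18 mouse hearts and of the 30 samples of the series. The series asks what ERR agonists do to gene expression in cultured rat ventricular myocytes and in mouse hearts under pressure overload. All mice were wild type, 332 was injected intraperitoneally over 6 weeks after surgery, and RNA was taken from the left ventricle. The other 10 mouse hearts, 5 given 332 and 5 given vehicle, had transverse aortic constriction (TAC), which narrows the aorta and loads the left ventricle; they are used here for the spread, the sequencing-run offset and 1 comparison of effects. Strain, age, sex, dose and the number of injections are not given in the sources used here. Total counts were between 12037176 and 14526856 in the sham hearts and between 11375894 and 16599899 over all 18. The Y-linked gene Ddx3y was at 40.5 CPM (each count divided by the size of its library) or more, and Xist at 0.386 CPM or less, in every heart. Markers of ventricular myocytes summed to between 56592.5 and 74182 CPM in the sham hearts, and the 8 atrial markers to between 39.2 and 159 CPM.

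The ERRs, encoded by Esrra, Esrrb and Esrrg, are orphan nuclear receptors that act without a known natural hormone and depend on coactivators of the PGC-1 family. In heart muscle they bind the promoters of genes for fatty acid oxidation, the citric acid cycle and the respiratory chain, and they also act on genes of contraction and calcium handling. An agonist is therefore usually read out by the level of these targets. A sham operation leaves the aorta open, so the comparison asks what 332 does to the ventricle in the absence of aortic narrowing.

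The lane written in the names of the deposited files is confounded with the treatment. The sham hearts given 332 were on lane L003 (hearts 1 to 3) and on lane L001 (hearts 4 and 5), whereas all 3 sham hearts given vehicle were on lane L004. Within the sham hearts, lane and treatment cannot be told apart. The TAC hearts were on L004 (hearts 1 to 3 of each group) and L001 (hearts 4 and 5 of each group). The fit used throughout held an offset for the run (L001 against L003 and L004); no vehicle heart was on lane L003. As a second reading, each value was also fitted with a lane term of 3 levels, in which the sham comparison rests on the 2 hearts of lane L001 after the L001 to L004 offset of the TAC hearts is taken off. Fitted differences below are log2 ratios of 332 to vehicle from edgeR's quasi-likelihood test with the run term, and values per heart are CPM after TMM scaling, without the run offset.

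Some genes followed a lane. All hearts of L003 were sham hearts given 332, so for that lane the treatment cannot be told apart from it. At 0.7 CPM or more in every heart of a lane and over 2 times the highest of all other hearts, 9 genes followed L003, 7 followed L001 and 0 followed L004; these thresholds were chosen after the values were seen. The 9 genes of L003 were Myh3, Mylpf, Tnni1, Mybph, Myog, Chrna1, Ccl3, Il1rn and Cxcl2. The first 6 are genes of skeletal or developing muscle, among them the embryonic myosin heavy chain (Myh3), myogenin (Myog) and the acetylcholine receptor subunit Chrna1. The last 3 encode regulators of inflammation. The 7 genes of L001 were Scd1, Adipoq, Cfd, Cidec, Plin1, Gm13394 and Rps2-ps13, the first 5 of them genes of lipid storage or fat cells. Adipoq, the adipocyte hormone adiponectin, was at 9.32 and 5.09 CPM in sham 332 hearts 4 and 5 and at 0.0896 CPM or less in the 12 hearts off lane L001. The L001 hearts came from 3 groups, vehicle included, so the higher level was present without 332 too.

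**Figure D1:**
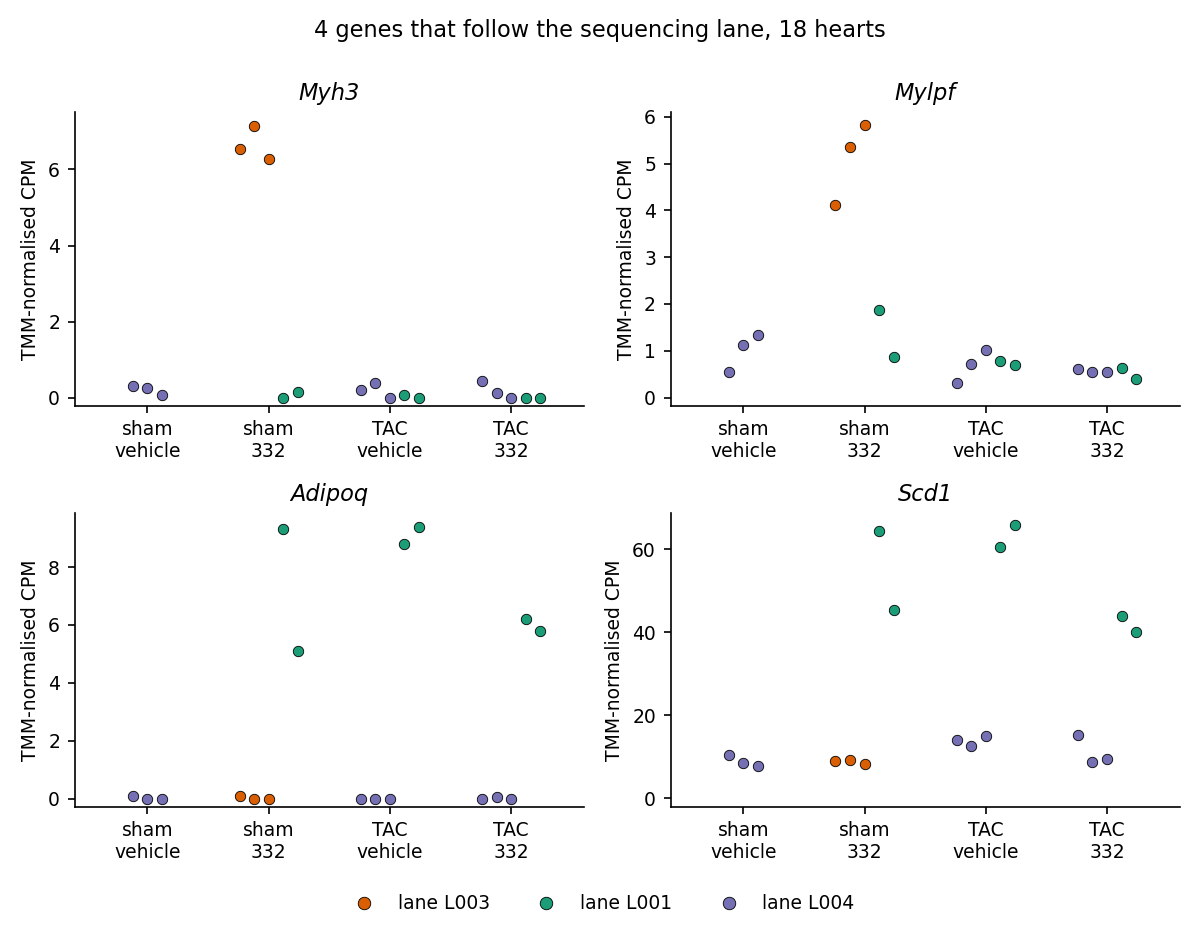
CPM (linear axes) of Myh3, Mylpf, Adipoq and Scd1 in all 18 hearts by group; each point is 1 heart and its colour is the lane. Myh3 and Mylpf are high only in the 3 sham 332 hearts of lane L003, where Myh3 was between 6.27 and 7.15 CPM; Adipoq and Scd1 are high in the 6 hearts of lane L001, whichever their group.

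Marker sums of other cell types were read by lane as well. The 9 adipocyte markers summed to between 26.6 and 27.8 CPM in the L003 hearts, between 50.7 and 61.2 CPM in the 2 sham hearts of L001 and between 21.3 and 30.2 CPM in the vehicle hearts; Lep and Ucp1 were at 0 in all 8. Most of the sum off lane L001 came from Cidea, at 19.28 to 20.35 CPM in the L003 hearts and 15.66 to 22.35 CPM with vehicle. Plin1 was at 0 in both sets and at 1.745 and 2.157 CPM in the sham hearts of L001. The skeletal muscle markers other than Ckm, which the heart also makes, summed to between 7.26 and 10.3 CPM in the L003 hearts, 2.62 and 12.7 CPM in the L001 hearts and between 1.88 and 2.67 CPM in the vehicle hearts. Myh4, the fast myosin of adult skeletal muscle, was at 0 in the L003 hearts and at 4.10 CPM in sham 332 heart 4. Fibroblast markers summed to between 1270 and 1451 CPM with 332 and between 1239 and 1439 CPM with vehicle. Endothelial markers summed to between 1173 and 1248 CPM in the L003 hearts. They summed to 1367 and 1374 CPM in the sham L001 hearts and to between 1247 and 1314 CPM with vehicle. Macrophage and leukocyte markers summed to between 157 and 228 CPM with 332 and between 159.8 and 213 CPM with vehicle. Red blood cell markers summed to between 823 and 1056.5 CPM in 4 of the 332 hearts, to 2099.9 CPM in heart 4, and to between 590.4 and 989.5 CPM with vehicle. The 8 epicardial and mesothelial markers, genes of the outer lining of the heart, summed to 8.69, 21.2, 14.3, 19.8 and 18.6 CPM in 332 hearts 1 to 5 and to 3.76, 6.69 and 10.7 CPM with vehicle, so that 4 of the 5 hearts, on both lanes, lay above the vehicle range. All 6 tested members of that list had positive differences, with a median log2 difference of 1.51 (lane term 1.18) against 0.01 over all genes, and 0 had an unadjusted p below 0.05 in edgeR or passed in DESeq2. Smooth muscle and pericyte markers summed to between 977 and 1011 CPM in the L003 hearts. They summed to 867 and 793 CPM in the sham L001 hearts and to between 939 and 1085 CPM with vehicle. In TAC vehicle hearts they were also lower on L001 (748 and 643 CPM) than on L004 (786 to 975 CPM). Lymphocyte markers summed to between 2.12 and 4.28 CPM with 332 and between 2.30 and 2.43 CPM with vehicle. Schwann and neural markers summed to between 11.3 and 14.0 CPM with 332 and between 11.9 and 17.5 CPM with vehicle. The part of these sources in the results below was not tested. In bulk tissue, fewer cells of a type and less RNA per cell cannot be told apart.

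The 332 effect in sham hearts passed the adjusted test at 1 gene of the 14047 tested (0.00712%), and that gene was Myh3. Its level was 6.54, 7.15 and 6.27 CPM in 332 hearts 1 to 3, 0 and 0.145 CPM in hearts 4 and 5, and 0.313, 0.261 and 0.074 CPM in the vehicle hearts. The fitted log2 difference was 4.86 (SE 0.60, adjusted p = 0.000693), but the 2 groups overlapped, since of the L001 hearts given 332 one lay inside and the other under the range of the vehicle hearts. With the lane term the difference was 1.47 (SE 1.67, adjusted p = 1), and Myh3 was no longer called. The call was also lost without sham 332 heart 1, without heart 2, without heart 3 and without all 3 hearts of L003.

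Of the other genes that followed lane L003, Mylpf, Myog and Tnni1 had large fitted differences that did not pass. Mylpf, a fast myosin light chain, was at 4.12, 5.36 and 5.82 CPM in hearts 1 to 3, at 1.88 and 0.872 CPM in hearts 4 and 5, and at 0.548, 1.13 and 1.33 CPM with vehicle. Myog was at 1.61, 2.41 and 1.15 CPM in hearts 1 to 3, at 0 in hearts 4 and 5, and at 0.174 CPM or less with vehicle. Tnni1, the slow skeletal troponin I, was at 2.33, 2.64 and 2.21 CPM in hearts 1 to 3 and at 0.435 CPM or less in the other 5 sham hearts. Each of the 3 was therefore high on 1 lane and at the vehicle level, or close to it, in the other 332 hearts. The next 2, Thbs1 and H19, were singled out after their values were seen and were not among the 9 genes that followed L003. In TAC hearts Thbs1 was at 5.67 to 20.7 CPM with 332 and at 20.0 to 44.9 CPM with vehicle. H19 was at 3.00 to 11.1 CPM and at 3.30 to 11.7 CPM in the same hearts. Thbs1, the matricellular protein thrombospondin 1, was at 12.4, 14.8 and 10.9 CPM in hearts 1 to 3, at 4.10 and 3.56 CPM in hearts 4 and 5 and at 1.88, 1.91 and 3.33 CPM with vehicle; here all 5 were above the vehicle range (log2 difference 2.06, SE 0.58, adjusted p = 0.683; with the lane term 0.89, SE 0.70). The imprinted noncoding RNA H19 showed the same steps, with 18.5, 20.3 and 18.7 CPM, then 9.11 and 7.05 CPM, against 7.52, 6.00 and 4.89 CPM with vehicle, where heart 5 lay inside the vehicle range.

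Below the adjusted threshold, 685 genes (4.88%) had an unadjusted p below 0.05 in edgeR, 391 of them higher with 332 (2.78%) and 294 lower (2.09%). The CPM ranges of the 5 and the 3 hearts did not overlap at 749 genes (5.33%), 428 higher (3.05%) and 321 lower (2.29%). With the lane term, 0 genes passed the adjusted test in edgeR and 453 (3.22%) had an unadjusted p below 0.05; 175 genes (1.25%) had one in both fits and in the same direction. DESeq2 called 5 genes, namely Myh3, Thbs1, Cxcl2, Klhl30 and Gm4724. The median log2 difference over all genes was 0.01. How closely the data bound an effect differed with the level: the 95% confidence interval lay within a 2-fold change either way for 11945 of 14047 genes , and, where the mean over the sham hearts reached 5 CPM (9652 genes), within 1.5-fold for 8861 (91.8%).

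The receptors themselves were measured in every heart. In TPM, a deposited scale that takes transcript length into account, vehicle hearts had 17.8 ± 1.37 of Esrra, 2.78 ± 0.874 of Esrrg and 1.22 ± 0.0351 of Esrrb (SD, n = 3), so that Esrra was the most abundant of the 3. Esrra was at 83.2, 81.7, 90.0, 87.8 and 90.3 CPM in the 332 hearts and at 75.6, 70.5 and 74.0 CPM with vehicle. Every 332 heart of either lane was above every vehicle heart. Among TAC vehicle hearts, Esrra was at 74.5 and 75.8 CPM on lane L001 and at 60.0 to 72.3 CPM on L004. The log2 difference in sham was 0.18 (SE 0.07, 95% interval 0.04 to 0.33), with an unadjusted p of 0.0139 in edgeR and an adjusted p of 0.914, so it did not pass; with the lane term it was 0.11 (SE 0.10). Esrrg, the isoform tied to oxidative muscle, was at 40.1, 42.8, 42.5, 40.8 and 31.1 CPM with 332 and at 37.5, 40.4 and 33.5 CPM with vehicle, with overlapping groups (log2 difference 0.24, SE 0.14, adjusted p = 1). Esrrb was at between 25.4 and 30.4 CPM with 332 and between 25.5 and 26.9 CPM with vehicle (log2 difference 0.10, SE 0.10).

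The ERR coactivators had positive values that did not pass. Ppargc1a encodes PGC-1alpha, the inducible coactivator of mitochondrial biogenesis, and it was at 110.8, 137.7, 131.1, 88.4 and 77.1 CPM with 332 against 115.4, 89.8 and 100.8 CPM with vehicle. The 2 lowest hearts were those of L001, and the groups overlapped (log2 difference 0.29, SE 0.23, adjusted p = 1). Ppargc1b, its paralog, was at 13.4, 16.0, 13.2, 14.0 and 10.2 CPM against 9.08, 13.2 and 11.0 CPM (log2 difference 0.39, SE 0.16, adjusted p = 0.979; lane term 0.47, SE 0.24). Perm1, a muscle regulator that acts downstream of PGC-1 and the ERRs, was at 286.6, 291.1, 301.6, 308.8 and 295.8 CPM with 332 and at 275.9, 274.5 and 251.7 CPM with vehicle. Its groups did not overlap, yet the fitted difference of 0.13 (SE 0.10, adjusted p = 1) was near its standard error. Nrip1, a corepressor of oxidative genes, was at between 17.1 and 21.8 CPM against 15.3 and 21.2 CPM (log2 difference 0.30, SE 0.18). Over the 12 ERRs, coactivators and corepressors, 0 passed the adjusted test in edgeR or DESeq2, 2 had an unadjusted p below 0.05 (Esrra and Ppargc1b), and 10 differences were positive with a median of 0.12, against 52.2% positive and 0.01 over all genes.

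**Figure D2:**
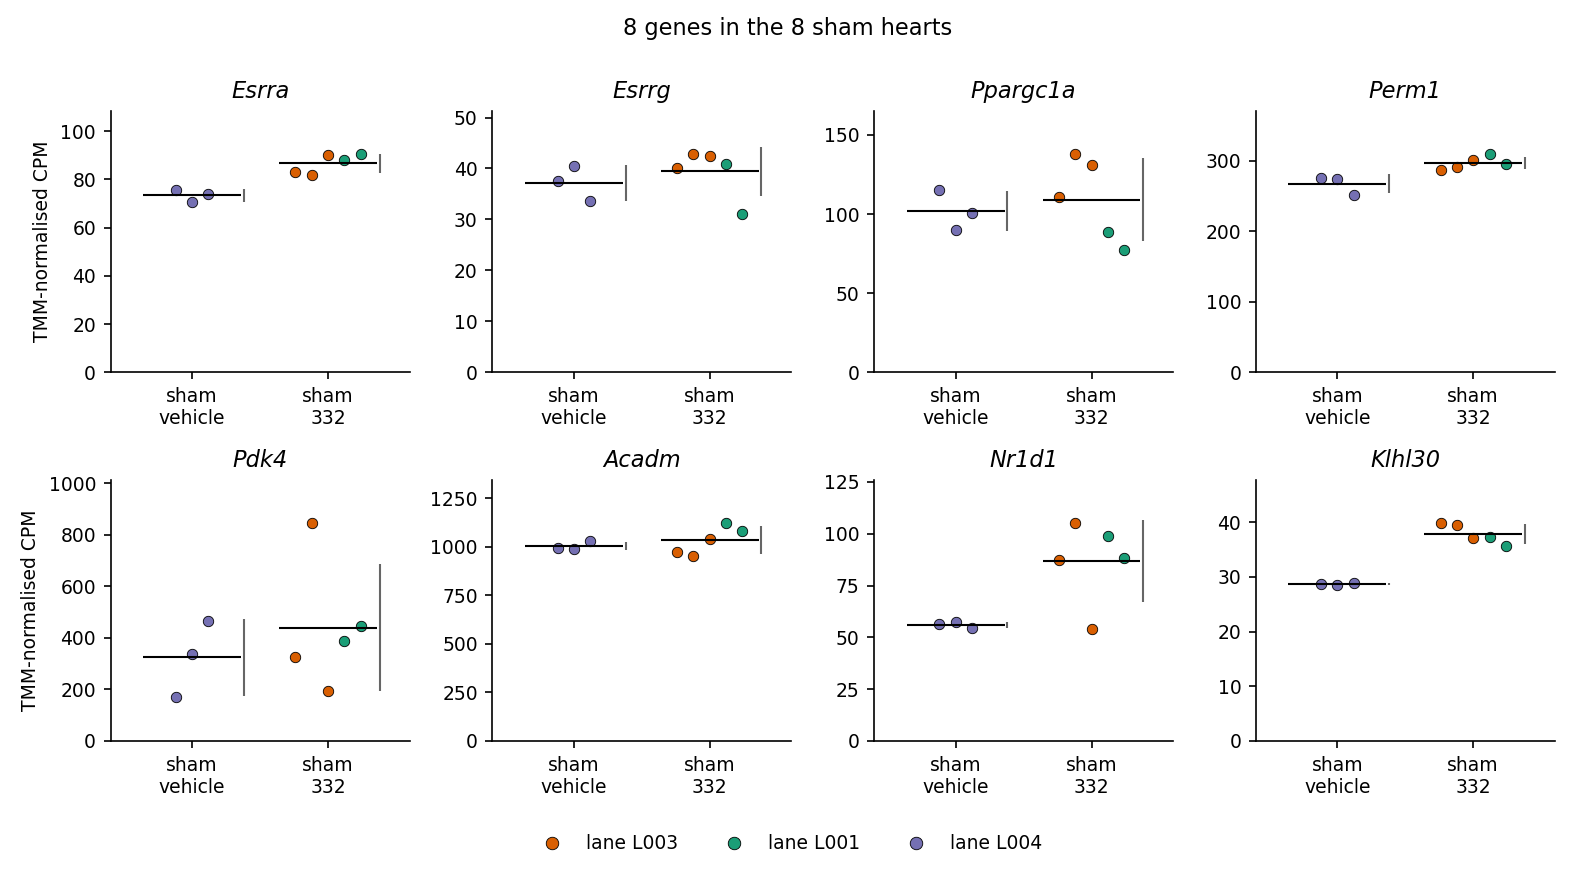
CPM (axes from 0) of 8 genes in the 8 sham hearts; points are hearts coloured by lane, the horizontal line is the group mean and the grey bar spans 1 SD either way. Esrra, Perm1 and Klhl30 do not overlap between the groups, whereas Pdk4 spans 194.5 to 845.5 CPM among the 332 hearts.

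Genes of fatty acid oxidation, the best known ERR targets in heart, showed small differences. Of the 40 genes of fatty acid uptake and oxidation, 0 had an unadjusted p below 0.05 and 28 differences were positive, with a median of 0.05 (lane term 0.11). Acadm, the medium-chain acyl-CoA dehydrogenase and a classical ERR target, was at 971, 952, 1037, 1121 and 1081 CPM with 332 and at 994, 989 and 1027 CPM with vehicle. Its log2 difference was -0.01 (SE 0.11), with a 95% interval of -0.23 to 0.21. Cpt1b, which loads long-chain acyl groups for mitochondrial entry, was at 554, 560, 519, 595 and 598 CPM against 465, 553 and 554 CPM (log2 difference 0.08, interval -0.12 to 0.29). Acadl, the long-chain acyl-CoA dehydrogenase, and Cd36, the fatty acid transporter, had log2 differences of -0.01 (SE 0.07) and 0.13 (SE 0.10).

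Fuel-switch genes that respond to fatty acids varied widely between hearts of one group. Pdk4, the kinase that shuts pyruvate out of the citric acid cycle, was at 326, 845.5, 194.5, 389.6 and 444 CPM with 332 and at 169, 336.5 and 466.5 CPM with vehicle. The groups overlapped over nearly the whole vehicle range (log2 difference 0.57, SE 0.53, adjusted p = 1). Angptl4, a secreted lipoprotein lipase inhibitor, was at 6.27, 19.8, 4.32, 12.7 and 18.8 CPM against 2.27, 5.04 and 7.55 CPM, with hearts 1 and 3 inside the vehicle range (log2 difference 1.28, SE 0.67, adjusted p = 0.998; lane term 1.88, SE 0.94). Ucp3, the muscle uncoupling protein, was at 72.6, 103.0, 50.8, 86.7 and 132.2 CPM against 29.8, 69.3 and 80.6 CPM (log2 difference 0.55, SE 0.52, adjusted p = 1). In all 3, heart 3 was the lowest of the 332 group and vehicle heart 1 the lowest of the vehicle group.

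Respiratory chain and citric acid cycle genes had differences close to 0. Of the 35 nuclear genes of complex I, 0 had an unadjusted p below 0.05 in edgeR, 13 differences were positive, and all lay between -0.11 and 0.10 with a median of -0.02. Of the 38 tested genes of complexes III to V and cytochrome c, 0 had one as well, with differences between -0.11 and 0.16 and a median of -0.02. Of the 30 genes of pyruvate dehydrogenase and the citric acid cycle, 1 had an unadjusted p below 0.05, the pyruvate dehydrogenase kinase Pdk3, with a log2 difference of -1.06 (SE 0.34) at a mean of 1.37 CPM. Citrate synthase (Cs) was at 1191, 1149, 1242, 1017 and 977 CPM with 332 and at 1189, 1187 and 1160 CPM with vehicle. Hearts 4 and 5 were the 2 lowest and hearts 1 and 3 above the vehicle range, and the fitted difference was 0.04 (SE 0.09). Tfam, which packages and transcribes mitochondrial DNA, had a difference of 0.13 (SE 0.08), and the 16 regulators of mitochondrial transcription and biogenesis had a median of 0.03 with 0 at an unadjusted p below 0.05. In glycolysis and glucose uptake, 7 of 25 genes had ranges apart and higher with 332, beside 3.05% of all genes, but 0 had an unadjusted p below 0.05 and the median was 0.04 (lane term 0.01).

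Counts from mitochondrially encoded genes made up a share that followed the lane. It was between 35.6% and 36.5% in the L003 hearts, 28.1% and 28.8% in the L001 hearts given 332, and between 35.4% and 36.0% in the vehicle hearts. The means were 33.0% ± 4.18 (SD, n = 5) with 332 and 35.7% ± 0.346 (SD, n = 3) with vehicle, and the difference of -2.66 percentage points had p = 0.607 in a two-sided exact permutation test. Between hearts 1 to 3 of each group, all of the first run, the difference was 0.383 points with the opposite sign (exact p = 0.4, where 3 against 3 cannot go below 0.1). TAC hearts of lane L001 were also below those of L004, with 23.5% to 28.0% against 28.6% to 34.8%. Among the 13 protein-coding mitochondrial genes, 10 fitted differences were positive and 0 had an unadjusted p below 0.05.

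**Figure D3:**
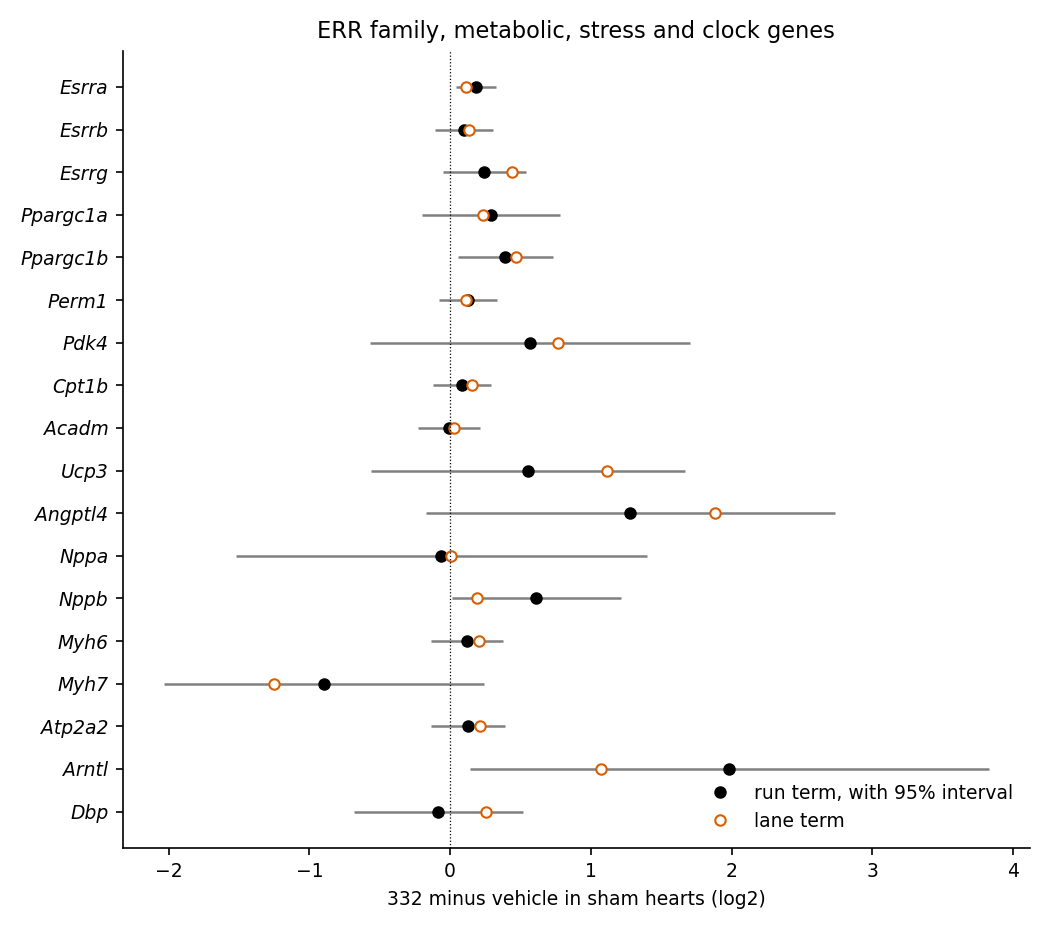
Log2 difference of 332 against vehicle in sham hearts for 18 genes of the ERR family, metabolism, stress and the clock; filled points with bars are the run-term fit with its 95% interval, open points the lane-term fit. The intervals of Esrra, Ppargc1b, Nppb and Arntl leave out 0 with no adjustment for the number of genes, and none of the 18 passed the adjusted test.

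The nonamer that ERRs bind, TCAAGGTCA or its reverse complement TGACCTTGA, was searched for on both strands in RefSeq promoter windows of GRCm38.p6, from 250 bases before to 50 after each start site. It stood in 139 of 32851 windows (0.423%). The sequences shown are the 250 bases before the start site of the 3 genes with the element there that had the highest mean in the sham hearts, given 5′ to 3′ on the strand of the gene with the element in capitals. Genes of a single chromosome were left out of this choice. The 3 genes are Psap (the lysosomal cofactor prosaposin, chr10:60277378-60277627, plus strand), Atp5g3 (a ring subunit of ATP synthase, chr2:73911327-73911576, minus strand) and Myh7b (a slow myosin heavy chain, chr2:155610993-155611242, plus strand).
Psap: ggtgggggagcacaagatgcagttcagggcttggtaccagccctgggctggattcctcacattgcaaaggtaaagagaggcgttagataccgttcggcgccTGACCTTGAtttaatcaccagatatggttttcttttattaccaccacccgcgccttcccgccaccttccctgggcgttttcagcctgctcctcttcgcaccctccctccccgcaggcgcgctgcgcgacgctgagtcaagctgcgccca
Atp5g3: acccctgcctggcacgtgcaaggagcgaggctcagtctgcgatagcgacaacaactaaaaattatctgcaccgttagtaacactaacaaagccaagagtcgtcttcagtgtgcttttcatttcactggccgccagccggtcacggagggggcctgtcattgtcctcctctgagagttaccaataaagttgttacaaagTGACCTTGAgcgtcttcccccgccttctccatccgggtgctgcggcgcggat
Myh7b: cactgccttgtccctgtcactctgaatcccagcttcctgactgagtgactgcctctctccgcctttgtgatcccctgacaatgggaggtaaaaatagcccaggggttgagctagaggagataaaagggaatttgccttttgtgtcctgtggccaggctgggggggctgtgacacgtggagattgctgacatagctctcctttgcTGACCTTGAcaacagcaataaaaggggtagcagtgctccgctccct

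The element ends 141, 44 and 38 bases before the start site in Psap, Atp5g3 and Myh7b. Atp5g3 was at 759, 731.5, 816, 917 and 891 CPM with 332 and at 746.5, 746 and 808.5 CPM with vehicle, with a log2 difference of 0.03 (SE 0.09). Psap had a difference of 0.00 (SE 0.09) and Myh7b one of 0.05 (SE 0.19), and none of the 3 passed. Of the 34 tested genes with the element in the window, 14 had positive and 20 negative differences, with a median of -0.05 against 0.01 over all genes, and 1 had an unadjusted p below 0.05, against 4.88% of all genes. Among 13 named genes looked up, Esrra, Acadm, Perm1 and Pdk4 among them, 9 had a window and 0 of these held the element. A match is only a run of letters, and no match says nothing about binding elsewhere.

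Genes of calcium handling and adrenergic signalling had mostly positive differences (20 of 27), and none passed. Of the 27, 5 had an unadjusted p below 0.05, all higher, against 2.78% of all genes, and the median was 0.11 (lane term 0.15). Jph2, which holds the sarcoplasmic reticulum against the T-tubules, was at 364, 343, 339.5, 421 and 433 CPM with 332 and at 309, 306 and 289 CPM with vehicle. Every 332 heart was above every vehicle heart (log2 difference 0.20, SE 0.08, adjusted p = 0.975; lane term 0.17, SE 0.13). Among TAC vehicle hearts, Jph2 was also higher on lane L001 (415 and 486 CPM) than on L004 (314 to 346 CPM). Adcy5, the main adenylyl cyclase of ventricular myocytes, also had sham groups apart, at 55.3, 61.9, 55.7, 55.2 and 53.6 CPM against 49.8, 49.8 and 48.4 CPM (log2 difference 0.22, SE 0.10, adjusted p = 0.997). The sodium-calcium exchanger Slc8a1, the luminal calcium-binding protein sarcalumenin (Srl) and the phosphodiesterase Pde3a made up the 5, with log2 differences of 0.24, 0.21 and 0.33. Atp2a2, the calcium pump, had a difference of 0.13 (SE 0.13). It was at 10209.7, 10128 and 10864 CPM in the L003 hearts, of which only heart 3 was above the vehicle range of 9402 to 10320.4 CPM. The L001 hearts, at 7869 and 7879 CPM, were below that range. TAC vehicle hearts were also lower on L001 (5860 and 5316 CPM) than on L004 (7193 to 8278 CPM).

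Markers of cardiac stress did not pass in either direction. Of the 28 cardiac stress and fetal genes, 3 were higher at an unadjusted p below 0.05 (Nppb, Hspb6 and Spp1) and 0 lower, against 2.78% and 2.09% of all genes. Nppb, the B-type natriuretic peptide gene, was at 102.7, 85.7, 65.5, 57.0 and 48.6 CPM with 332 and at 58.7, 54.3 and 37.5 CPM with vehicle (log2 difference 0.61, SE 0.28, adjusted p = 0.997). The 3 L003 hearts were above the vehicle range and the 2 L001 hearts inside it, and the lane-term difference was 0.19 (SE 0.39). Spp1, which encodes the secreted protein osteopontin, was at 3.68, 3.26 and 4.24 CPM in hearts 1 to 3, at 0.417 and 0.582 CPM in hearts 4 and 5 and at 0.313, 0.348 and 0.148 CPM with vehicle. All 5 were above the vehicle range, the 2 L001 hearts by little, and the log2 difference was 3.20 (SE 1.09, unadjusted p = 0.0111 and adjusted p = 0.894 in edgeR; lane term 0.39, SE 1.19). Nppa, the atrial peptide gene, was at 95.5, 77.8, 25.4, 63.7 and 142.0 CPM against 25.7, 77.7 and 108.2 CPM (log2 difference -0.06, SE 0.68). Myh7, the slow myosin heavy chain that loaded mouse ventricles re-express, was at 99.9, 136.0, 146.6, 164.5 and 291 CPM against 157.4, 235.7 and 260.0 CPM, with a log2 difference of -0.90 (SE 0.53, adjusted p = 1). Myh6, the adult isoform, had a difference of 0.12 (SE 0.12). Of the 33 sarcomere genes, 0 had an unadjusted p below 0.05 in edgeR, and the median was 0.05.

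Klhl30, a kelch-like gene of striated muscle, had the lowest p among genes at 5 CPM or more whose ranges did not overlap; it was chosen after its values were seen. It was at 39.8, 39.4, 37.1, 37.4 and 35.5 CPM with 332 and at 28.7, 28.4 and 29.0 CPM with vehicle. The hearts of both lanes were above the vehicle hearts, by more than the spread within either group. The log2 difference was 0.42 (SE 0.08, unadjusted p = 2.01e-05 in edgeR, adjusted p = 0.111), and with the lane term it was 0.39 (SE 0.12, unadjusted p = 0.0029, adjusted p = 1). It passed in DESeq2 and in edgeR without TAC 332 heart 3.

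Interferon-inducible genes had mostly negative differences. Of the 24 interferon-stimulated genes, 5 differences were positive and 19 negative, with a median of -0.21 (lane term -0.14); 3 had an unadjusted p below 0.05, all lower, against 2.09% of all genes, and 0 passed in edgeR or DESeq2. These 3 were Gbp2, Gbp3 and Gbp7, guanylate-binding proteins that defend cells against intracellular microbes, with log2 differences of -0.33, -0.50 and -0.28. Gbp4 and Gbp5, of the same family and singled out after their values were seen, had ranges apart. Gbp4 was at 16.5, 14.1, 13.7, 13.1 and 18.4 CPM with 332 and at 22.2, 22.0 and 26.6 CPM with vehicle (log2 difference -0.66, SE 0.16, adjusted p = 0.631; lane term -0.62, SE 0.24). Gbp5 was at 9.77, 8.16, 8.83, 9.88 and 12.3 CPM against 15.3, 12.8 and 15.0 CPM (log2 difference -0.69, SE 0.17, adjusted p = 0.631; lane term -0.70, SE 0.25). For both, the values of the 2 lanes were below the vehicle range alike.

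Of the 17 tested core clock genes, 4 had an unadjusted p below 0.05, against 4.88% of all genes, and 5 differences were positive, against 52.2% of all genes, with a median of -0.10. Arntl (Bmal1), the activator, was at 2.06, 8.01, 0.883, 1.88 and 1.24 CPM with 332 and at 0.627, 1.39 and 0.370 CPM with vehicle (log2 difference 1.98, SE 0.86, adjusted p = 0.997). Heart 2 stood far above the others. Nr1d1, the repressor that Arntl drives, was at 87.4, 105.1, 54.0, 99.1 and 88.4 CPM against 56.3, 57.5 and 54.3 CPM; heart 3 was at the vehicle level and the other 4 above it (log2 difference 0.67, SE 0.19, adjusted p = 0.675; lane term 0.97, SE 0.25). Without heart 3, and likewise without the 3 hearts of L003, Nr1d1 passed the adjusted test. Clock was at 26.7, 36.6, 27.9, 23.4 and 18.5 CPM against 21.8, 24.4 and 18.7 CPM (log2 difference 0.47, SE 0.13, adjusted p = 0.675). Cry1, a repressor, was at 5.83, 4.59, 8.38, 8.07 and 8.29 CPM against 11.2, 7.83 and 10.7 CPM (log2 difference -0.58, SE 0.17, adjusted p = 0.677). Per2 was lowest in heart 2 (10.3 CPM) and highest in heart 3 (36.7 CPM) of the 332 group, against 25.3 to 35.8 CPM with vehicle, and Dbp, an output gene, had a difference of -0.08 (SE 0.28). The time of day of tissue collection is not given in the sources used here, and its part was not tested.

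Among lists of stress and lipid synthesis genes, 0 members passed in edgeR or DESeq2. Of 28 tested genes of cholesterol and fatty acid synthesis, 23 differences were positive with a median of 0.11 (lane term 0.06). The regulator Srebf1 had a log2 difference of 0.26 (SE 0.11) with an unadjusted p of 0.031 in edgeR. Of 20 cytosolic heat shock proteins, 19 differences were positive with a median of 0.09, and 2 had an unadjusted p below 0.05, both higher, against 2.78% of all genes: Hsph1 (0.52, SE 0.24) and Hspb6 (0.25, SE 0.11). Hspb6 was at 761, 637, 637, 722 and 656 CPM with 332, all above the vehicle values of 569, 603 and 606 CPM. Of 21 antioxidant genes of the NRF2 pathway, 15 differences were negative with a median of -0.08, and 4 had an unadjusted p below 0.05, all lower, against 2.09% of all genes: the glutathione synthesis subunit Gclm (-0.34, SE 0.11), the glutathione transferases Gsta3 (-0.70, SE 0.27) and Gsta4 (-0.16, SE 0.07), and the ferritin light chain Ftl1 (-0.29, SE 0.11). Gclm was at 31.8, 30.1, 30.0, 34.7 and 35.5 CPM with 332 and at 37.0, 37.1 and 44.4 CPM with vehicle, with no overlap.

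The medians of the extracellular matrix, the cardiac stress and the glucocorticoid-responsive lists were lower with the lane term. That of the cytokines, which include the L003 genes Ccl3 and Cxcl2, was not. The 35 extracellular matrix genes had a median of 0.20 with the run term and 0.01 with the lane term, and 2 were higher at an unadjusted p below 0.05, against 2.78% of all genes (Tnc and Thbs1, of which DESeq2 called Thbs1). The 15 tested inflammatory cytokines and chemokines had a median of 0.23 with the run term and 0.26 with the lane term, and at that unadjusted threshold 3 were higher (Ccl3, Ccl9 and Cxcl2) and 1 was lower (Cxcl9), against 2.78% and 2.09% of all genes, with Cxcl2 called by DESeq2; it was at 0.883 to 1.48 CPM in the L003 hearts, at 0.0727 CPM or less in the L001 hearts and at 0 with vehicle. Ccl9, a macrophage chemokine, was at 3.44 to 5.52 CPM in the L003 hearts and at 3.34 and 4.07 CPM in the L001 hearts, above the vehicle range of 1.57 to 2.74 CPM in both lanes (log2 difference 1.09, SE 0.29, adjusted p = 0.631). The 28 cardiac stress and fetal genes had a median of 0.04 with the run term and -0.13 with the lane term. The 20 glucocorticoid-responsive genes had medians of 0.02 and -0.23, a wider fall than that of the matrix list.

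**Figure D4:**
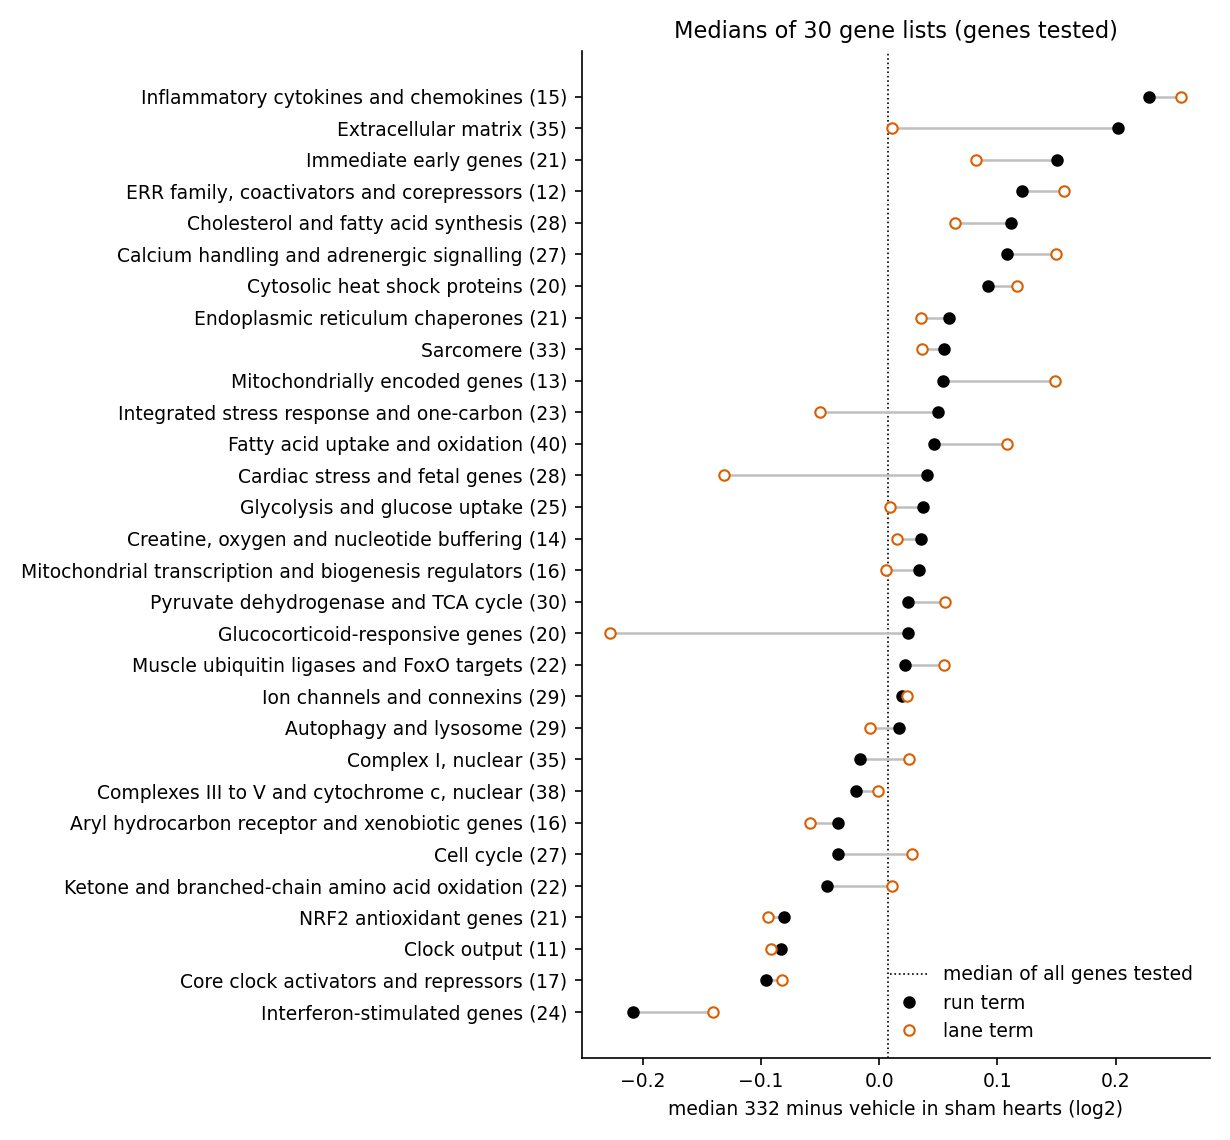
Median log2 difference of 332 against vehicle in sham hearts for 30 gene lists, with the number of genes tested in brackets; filled points are the run-term fit, open points the lane-term fit, and the dotted line the median of all genes. The medians of the run-term fit lie between -0.21 (interferon-stimulated genes) and 0.23 (inflammatory cytokines and chemokines). With the lane term the extracellular matrix list moves from 0.20 to 0.01 and the glucocorticoid-responsive list from 0.02 to -0.23.

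The effect of 332 in sham hearts was then set against that in TAC hearts, which shared no heart with it but shared the fitted run offset. The difference of the 2 effects passed the adjusted test at 9 genes of 14047 (0.0641%), with 1406 (10.0%) at an unadjusted p below 0.05. At all 9 the 2 fitted effects had opposite signs, 6 were called in TAC and 0 in sham. The genes were picked by a large difference of the 2 effects, which favours opposite signs, so the signs are no separate result. The sham effects of Shb and Gramd1b were smaller than their SE. Slc46a3, a lysosomal transporter, was at 10.1, 6.22, 7.41, 5.91 and 6.03 CPM in sham with 332, below the vehicle hearts at 12.5, 11.0 and 11.2 CPM. In TAC it was at 7.22 to 9.44 CPM with 332, above the vehicle hearts at 3.03 to 6.33 CPM. The log2 effects were -0.61 (SE 0.18, adjusted p = 0.675) and 0.75 (adjusted p = 0.0307), and their difference was -1.36 (SE 0.23, adjusted p = 0.0438). Tspan4, a tetraspanin, had -0.25 in sham and 0.69 in TAC, and Gramd1b, a sterol carrier at membrane contacts, -0.05 and 0.59.

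The other 6 had a positive value in sham and a negative one in TAC. Clock had 0.47 and -0.45, the kinase Stk24 0.31 and -0.33, and Klhl30 0.42 and -0.12, none of them called in TAC. The endoplasmic reticulum chaperone Hyou1 had 0.27 (SE 0.10) in sham and -0.41 in TAC. It was at 31.7, 31.7, 26.9, 31.0 and 30.3 CPM in sham with 332, where heart 3 lay just under the highest of the vehicle hearts at 26.9, 26.1 and 20.5 CPM. In TAC it was at 24.3 to 29.5 CPM with 332, below the vehicle hearts at 32.3 to 39.4 CPM. Cald1, the actin-binding caldesmon, had 0.21 and -0.40, and the adaptor Shb 0.07 and -0.84, for which the sham groups overlapped. With the lane term 0 of the 9 differences passed, and likewise 0 of the 9 without the 3 hearts of L003; in both fits all 9 kept their sign, with sizes of 0.49 to 1.54 without those hearts. Both fits reuse hearts by which the 9 genes were picked, so the kept signs are no separate support. The number of genes that passed ranged from 0 to 25 when 1 heart was left out.

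Of the 60 genes called for 332 in TAC (0.427%), 19 were higher and 41 lower. In sham hearts, 4 of the 19 had positive and 15 negative values with a median of -0.08, against 0.59 in TAC. Of the 41, 28 had positive and 13 negative values with a median of 0.09, against -0.65 in TAC. With the lane term the sham medians were 0.02 for both, so the sign of the median of the 19 depended on the term. Of the 60, 5 picked after their values were seen had sham values near 0: the potassium channel Kcnh2 (0.10 in sham, SE 0.12; 0.65 in TAC), the cardiac transcription factor Tbx5 (-0.08, SE 0.15; 0.66 in TAC), the growth factor Vegfa (0.05, SE 0.11; -0.40 in TAC) and the endoplasmic reticulum proteins Manf (0.11, SE 0.10; -0.51 in TAC) and Hspa5 (0.15, SE 0.08; -0.31 in TAC). For Manf, sham hearts were at 17.8 to 20.1 CPM with 332 and at 17.5, 18.6 and 14.4 CPM with vehicle, so the groups overlapped.

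**Figure D5:**
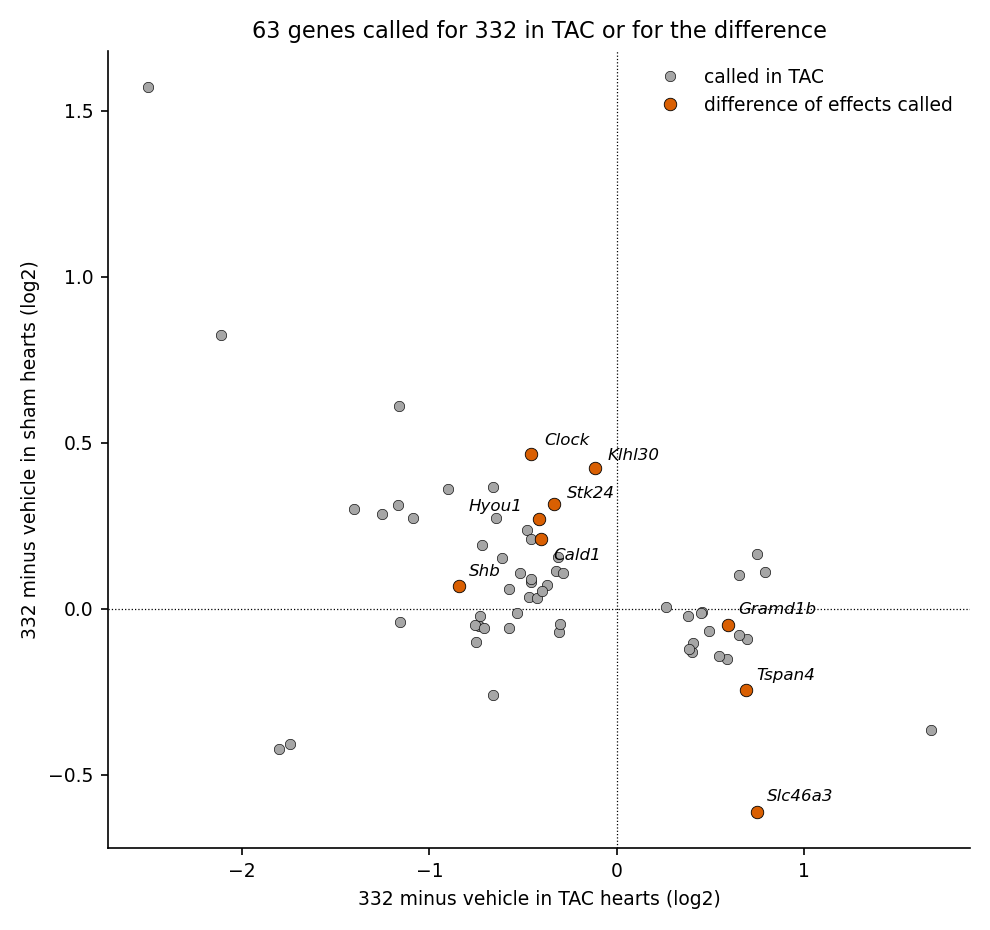
Log2 difference of 332 against vehicle in TAC hearts (horizontal) and in sham hearts (vertical) for the 63 genes called in TAC or for the difference of effects; orange points are the 9 genes whose difference passed. The orange points lie at the upper left or the lower right, and grey points lie on both sides of 0 in sham.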

How the data were processed

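Left ventricular RNA was made into libraries with a TruSeq RNA v2 kit, per the labels' protocols, and quantified per transcript with Salmon after fastp, per the submitters' processing notes, which also name DESeq2; versions and the transcriptome build are not given in the sources used here. The deposited files, per the file headers, hold an estimated count and a TPM per transcript. These were summed to genes (140790 transcripts, 54307 genes), and estimated counts, of which 5.61% were not whole within 0.001, were rounded. Lane and run were read from the file names.

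edgeR 4.0.16 (R 4.3.3) fitted all 18 hearts, 4 groups plus a run term, with TMM factors of 0.884 to 1.15, a minimum count of 10 (14047 genes), a robust quasi-likelihood test, 13 residual degrees of freedom and Benjamini-Hochberg adjustment at 0.05. The mitochondrial share was compared by exact permutation (scipy 1.17.1). Total counts limit the precision of low genes, and intervals cover the fitted spread. Nothing in the labels says whether hearts of a group were handled in separate cohorts. No pair of libraries of the same group agreed within sampling noise, and pairs across groups were not compared in this way. The fit was tested on simulated data. Alternatives were other scaling (RLE), filters, DESeq2 1.42.0, other terms, subsets of hearts and leaving out each heart.

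The members and gene lists were chosen with earlier results of these data known. H19, like the genes listed last below, was singled out after its values were seen. Genes named were those called in sham with a mean of 5 CPM or more and ranges apart (0), called members of lists with at least 2 (0), a fixed set of 18, the 4 largest differences of effect each way with a mean of 5 CPM or more (7 genes), and genes singled out after their values were seen: Myh3, the genes that followed a lane, Klhl30, Cald1, the Gbp genes, list members with an unadjusted p below 0.05 (some of which are not reported here), Nrip1, Per2, the 3 promoter genes, 5 genes called in TAC, and Cs, Tfam, Acadl and Cd36.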

Additional observations from a re-analysis of the deposited data

Results flagged for a closer look

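Among the sham hearts given 332, 4 of the 92 sets of 5 values examined had 1 heart set apart from the other 4 by over 0.710 of the whole range, a gap that chance gives in about 1 in 20 sets. Esrrg was lowest in heart 5 at 31.1 CPM. Arntl and Adcy5 were highest in heart 2, at 8.01 and 61.9 CPM. The summed red blood cell markers were highest in heart 4, at 2099.9 CPM.

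For 9 genes the effect of 332 differed between sham and TAC hearts by a test of the difference itself (edgeR, adjusted p between 0.0438 and 0.0494). Picking genes by this difference favours opposite signs. The fitted effects had opposite signs in the 2 surgeries at all 9, but 0 were called in sham. There, Shb (0.07, SE 0.13) and Gramd1b (-0.05, SE 0.09) had effects smaller than their SE. Shb was -0.16 in sham with the lane term, the same sign as its TAC effect of -0.84 with the run term. The sham effect minus the TAC effect was 0.92 for Clock, 0.91 for Shb, 0.68 for Hyou1, 0.65 for Stk24, 0.61 for Cald1, 0.54 for Klhl30, -0.64 for Gramd1b, -0.94 for Tspan4 and -1.36 for Slc46a3 on the log2 scale. The 332 hearts of the sham arm include the 3 of lane L003. Without these 3, 0 of the 9 passed (adjusted p between 0.153 and 0.677); all 9 kept their sign, with sizes of 0.49 to 1.54, and an unadjusted p below 0.05. With the lane term 0 of the 9 passed either (edgeR, adjusted p between 0.5 and 0.696). Both fits reuse hearts by which the 9 were picked, so kept signs and unadjusted p values are no separate support.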

How the results depend on the processing

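The count of genes called for 332 in sham hearts (1) was 1 with RLE scaling, a minimum count of 50 or the mitochondrial genes removed. It was 191 with no filter on low counts (26117 genes tested), 5 in DESeq2, 0 with no run term, 0 with the lane term, 12 in the first run alone, 0 with only the 8 sham hearts, and 2 without the 3 hearts of L003 (added after seeing the data); leaving out 1 heart gave 0 to 2. The 191 were not only low-count genes: Pdk4, Myh7 and Nppb, which did not pass in the fit as reported, were among them. For Pdk4 the log2 difference was 0.57 in both fits, with an SE of 0.09 without the filter and 0.53 with it. Hearts 4 and 5 against vehicle with no run term gave 2754, where run and treatment coincide, and reversed Atp2a2 (-0.32), Dbp (0.51), Cd36 (-0.24), Cs (-0.25) and Mb (0.42). The count for the difference of effects (9) was 9 with RLE and 10 without mitochondrial genes, 521 with no filter, 15 with the stricter filter, 87 in DESeq2, 0 with no run term, 0 with the lane term, 5 in the first run alone and 3 without the L003 hearts (0 of the 9 in either), and 0 to 25 leaving out 1 heart (0 to 9 of the 9). The difference in mitochondrial share (-2.66 points) was 0.383 in hearts 1 to 3 and -3.54 to -1.43 leaving out 1 heart. The causes were not tested. With the replicate number as a block the counts were 1 and 6; same-numbered hearts of 2 groups had correlations of -0.316 to 0.0557 (24 pairs), so the numbers were not taken to pair hearts. A low count sets the widest intervals: 11945 of 14047 genes were bounded within 2-fold, and 98.4% of those at 5 CPM or more.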
